A study of Mus musculus with 6 samples.

Results

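The genes described here encode the respiratory chain and the ATP synthase of the mouse, the machinery of oxidative phosphorylation in the inner mitochondrial membrane. They were chosen by name: names starting with Nduf, Uqcr, Atp5, Cox4 to Cox8, mt-Nd, mt-Co, mt-Cyb or mt-Atp, together with Sdha, Sdhb, Sdhc and Sdhd, without names containing -ps, keeping those whose level averaged 1 FPKM or more across the 6 libraries. FPKM, a fragment density, corrects a gene's read count for its length and for the size of the library. Of 104 names, 98 reached that level, out of 12113 genes tested and 47643 gene IDs listed. These 98 comprised 43 subunits of complex I (NADH dehydrogenase), 7 complex I assembly factors, 4 subunits of complex II (succinate dehydrogenase), 8 of complex III (cytochrome bc1), 17 of complex IV (cytochrome c oxidase, with Ndufa4 placed here) and 17 of complex V (the ATP synthase). Atp5s and Atp5sl were counted apart. Of the 98 genes, 86 are nuclear and 12 are mitochondrially encoded, and all 98 are annotated as protein coding.

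The 6 names left out for a low level were all complex IV paralogues. Cox7b2 and Cox8c were listed at 0 FPKM in every library, and Ndufa4l2, Cox8b, Cox6a2 and Cox4i2 averaged 0.023, 0.041, 0.15 and 0.17 FPKM. No gene name began with mt-Cyb. The cytochrome b gene is listed as mt-Cytb and is therefore given beside the set, as is the nuclear cytochrome c1 gene Cyc1.

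The PGE2 group was 3 libraries of Foxp3+ induced regulatory T cells (iTreg) given 100 nM prostaglandin E2 for 6 h, and the Vehicle group was 3 libraries of such cells given DMSO for 6 h. Both groups were splenic CD4+ T cells from C57BL/6 mice of the genotype Foxp3-DTR/EGFP, first held for 2 days with plate-bound antibody to CD3, soluble antibody to CD28 and TGF-β, and sorted on GFP after the treatment. The age and sex of the mice were not given, and the labels leave unsaid whether replicates were separate mice or cultures. The p-values therefore rest on a spread between libraries that may be technical. The comparison asks how PGE2 changed gene expression in Foxp3+ iTreg.

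Electrons from NADH enter the chain at complex I and electrons from succinate at complex II. Ubiquinone carries them to complex III, and cytochrome c carries them on to complex IV, which reduces oxygen. Complexes I, III and IV pump protons across the membrane, and the ATP synthase uses the return flow to make ATP. Apart from complex II, each complex combines subunits encoded in the nucleus with a few encoded in mitochondrial DNA. Regulatory T cells are known to rely more on oxidative phosphorylation than conventional effector T cells. PGE2 is a lipid mediator whose receptors EP2 and EP4 raise cyclic AMP, which acts in part through the factor CREB.

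Promoters of the nuclear genes were examined for the letters of 4 motifs, because a common set of factors is known to act on nuclear genes of the chain and because CREB binds the cyclic AMP response element (CRE). RefSeq windows of 250 bases before to 50 bases after the gene start (GRCm38.p6) were at hand for 74 of the 86 nuclear genes, 80 windows in all. Both strands were searched, and matches of different motifs were allowed to overlap. The NRF1 motif GCGCANGCG was present in 23 of 80 windows (28.7%), against 14.9% of 9768 windows of tested protein coding genes and 6.25% of all 32851 windows. The YY1 motif AAGATGGCG was present in 9 windows (11.2%), against 3.51% and 1.4%. The ETS motif CCGGAAG, which GABPA binds, was present in 17 windows (21.2%), against 19.8% and 8.86%. The CRE letters TGACGTCA were present in 4 windows (5%), against 3.36% and 1.79%. These are counts of letters, not of bound sites.

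The 4 CRE matches are shown because they are the letters most directly tied to cyclic AMP, with the motif in capitals and each sequence written 5′ to 3′ on the strand of its gene. They lie at chr1:92473804-92473839 (minus strand) for Ndufa10, chr17:56717590-56717625 (plus strand) for Ndufa11, chr6:39592537-39592564 (plus strand) for Ndufb2 and chr13:30545324-30545359 (minus strand) for Uqcrfs1. All are upstream of the RefSeq start. The annotated gene entries of Ndufa10 and Uqcrfs1 begin further upstream, at 92473860 and 30545362, and so include their matches.
Ndufa10: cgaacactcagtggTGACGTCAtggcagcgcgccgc
Ndufa11: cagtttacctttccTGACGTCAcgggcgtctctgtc
Ndufb2: gcagtgcgacgcagTGACGTCAcgggcc
Uqcrfs1: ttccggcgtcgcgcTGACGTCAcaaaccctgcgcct

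NRF1 matches stood in 8 of 32 complex I genes with a window, 2 of 6 assembly factors, 2 of 3 complex II genes, 2 of 5 complex III genes, 1 of 12 complex IV genes and 7 of 14 complex V genes. One upstream match is shown from each complex that had a match clear of the start and from the assembly factors, with the 9 matched bases in capitals. The windows lie on GRCm38.p6 at chr4:123718262-123718298 (minus strand) for Ndufs5, chr4:24897956-24897992 (plus strand) for Ndufaf4, chr9:50603906-50603942 (minus strand) for Sdhd, chr5:115349053-115349089 (minus strand) for Cox6a1 and chr2:10080433-10080463 (minus strand) for Atp5c1. Upstream again refers to the RefSeq start. The annotated Atp5c1 entry begins at 10080510 and includes its match.
Ndufs5: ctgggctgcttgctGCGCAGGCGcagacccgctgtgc
Ndufaf4: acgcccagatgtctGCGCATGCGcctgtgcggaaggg
Sdhd: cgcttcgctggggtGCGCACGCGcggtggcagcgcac
Cox6a1: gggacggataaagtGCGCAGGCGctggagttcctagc
Atp5c1: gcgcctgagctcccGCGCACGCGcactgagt

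The labelled cell type was checked against its markers. Foxp3, Il2ra, Ctla4 and Ikzf2 together reached 1073 to 1156 FPKM in PGE2 libraries and 957 to 1032 FPKM in Vehicle libraries. Ctla4 made the largest part of this difference, with 339 to 351 FPKM in PGE2 libraries and 191 to 205 FPKM in Vehicle libraries. Il2ra had 620 to 671 FPKM in PGE2 libraries and 644 to 758 FPKM in Vehicle libraries. Foxp3 had 135.6, 119.4 and 91.1 FPKM in PGE2 libraries and 99.4, 101.4 and 75.4 FPKM in Vehicle libraries, which overlap. The T cell genes Cd3e, Cd3g and Cd4 reached 531 to 541 FPKM with PGE2 and 496 to 510 FPKM with Vehicle. The sum of 5 CD8 and NK cell genes was 47.5 to 50.3 FPKM in PGE2 libraries and 57.8 to 61.5 FPKM in Vehicle libraries, most of it Nkg7, and Ncr1 was listed at 0. The 4 B cell genes summed to 3.55 to 4.33 FPKM with PGE2 and 3.83 to 5.70 FPKM with Vehicle, most of it Cd79b. All myeloid, erythroid and platelet markers averaged under 1 FPKM. Depth, taken as coverage per unit of FPKM, was 5.446, 5.195 and 4.542 gigabases in PGE2 replicates 1, 2 and 3, and 5.121, 5.045 and 3.996 gigabases in Vehicle replicates 1, 2 and 3 (exact permutation test, two-sided, p = 0.5, smallest possible 0.1). In both groups replicate 3 was the shallowest. In bulk samples fewer cells of a type and less RNA per cell cannot be told apart.

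Messages of the chain were abundant. Nuclear genes averaged a sum of 8185 ± 1077 FPKM in PGE2 libraries and 7841 ± 595 FPKM in Vehicle libraries, and the 12 mitochondrial genes 13536 ± 1210 FPKM with PGE2 and 14483 ± 1745 FPKM with Vehicle (SD, n = 3 each). The median gene reached 86.6 FPKM with PGE2 and 81.5 FPKM with Vehicle, against 9.74 FPKM with PGE2 and 10.1 FPKM with Vehicle over all tested genes. Among nuclear genes, the median level stepped up along the chain. It was 55.8 FPKM with PGE2 and 54.7 FPKM with Vehicle for complex I, 66.3 FPKM with PGE2 and 67.4 FPKM with Vehicle for complex II, and 80.9 FPKM with PGE2 and 79.1 FPKM with Vehicle for complex III. It was 166 FPKM with PGE2 and 161 FPKM with Vehicle for complex IV, and 175 FPKM with PGE2 and 166 FPKM with Vehicle for complex V. The complex I assembly factors, which build the enzyme and are not part of it, had a median of 6.89 FPKM with PGE2 and 7.42 FPKM with Vehicle.

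No gene of the chain or the ATP synthase passed the test between PGE2 and Vehicle (limma on log2(FPKM + 1), Benjamini-Hochberg adjustment over 12113 genes, threshold 0.05). Of all genes tested, 0.809% passed. At an unadjusted p under 0.05, 5 of the 98 genes were found, 2 higher and 3 lower with PGE2, against 13% of all genes. The groups did not overlap for 5 of the 98 genes, against 19.7% of all genes. Directions below are those of the mean log2(FPKM + 1), by which 5250 of all 12113 tested genes were higher and 6863 lower with PGE2. The median log2 change, PGE2 minus Vehicle, was 0.02 over the 98 genes, with a range of -0.41 to 0.32, and -0.03 over all tested genes, with a range of -3.55 to 3.04.

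How large a change could have been missed is given by the limma 95% interval of each difference. For 96 of the 98 genes the interval lay within 1 log2 unit of 0, against 94.9% of all tested genes. A 2-fold change in FPKM + 1 in either direction then fell outside it. In low genes a 2-fold change in FPKM is less than 1 unit on this scale and may lie inside. For 68 of the 98 genes it lay within 0.5 log2 units of 0, against 63.5% of all tested genes. The exceptions to the wider bound were Ndufa12, an accessory subunit of complex I with an interval of -1.45 to 1.87, and Cox7a1, the heart and muscle isoform of a complex IV subunit with an interval of -0.4 to 1.03. For 79 of the 98 genes the difference between group means was smaller than the pooled SD between replicates, as it was for 60.1% of all tested genes.

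Medians by complex were near 0 and depended on single libraries. They were 0.02 for complexes I and III, 0.07 for complex IV, and under 0.01 in size for complexes II and V. Without PGE2 replicate 3, they were -0.07, -0.04, -0.06, -0.05 and -0.07 for complexes I to V. Vehicle replicate 3 was kept there. It was itself higher than the mean of Vehicle replicates 1 and 2 in 66 of 86 nuclear genes.

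**Figure D1:**
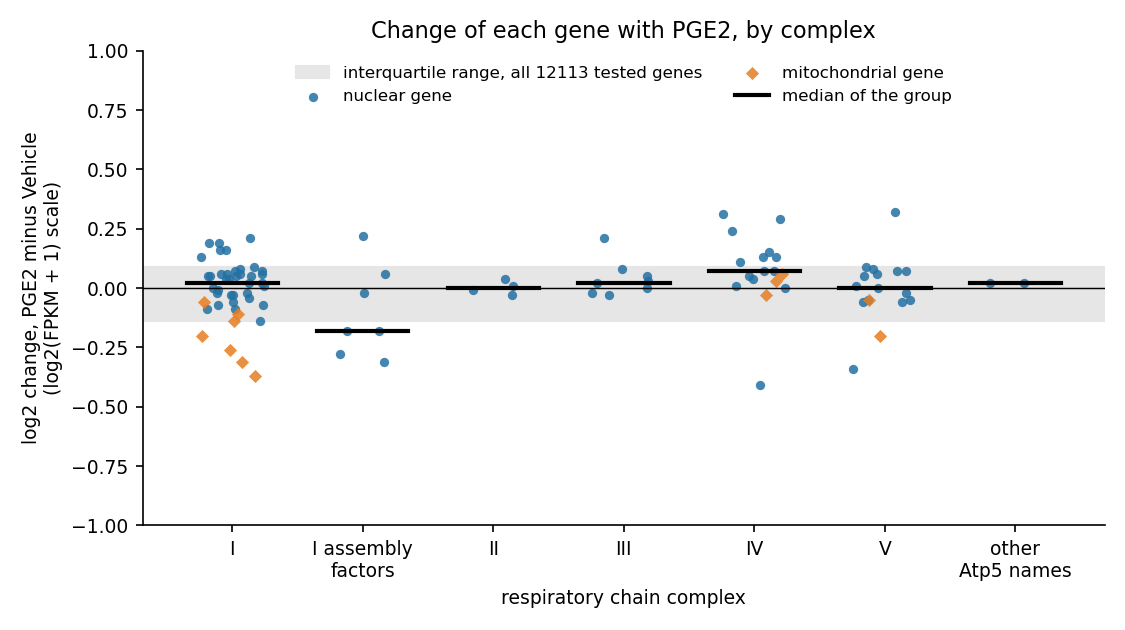
Each point is 1 gene, plotted by complex on the x axis against its log2 change on the y axis, PGE2 minus Vehicle on the log2(FPKM + 1) scale. Circles are nuclear genes, diamonds mitochondrial genes, black bars group medians, and the grey band runs from -0.14 to 0.09, the interquartile range of all 12113 tested genes. All 98 genes lie between -0.41 and 0.32, and the 7 mitochondrial genes of complex I all lie below 0.

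In complex I, electrons run along a matrix arm of nuclear core subunits to ubiquinone where the arms join, and a membrane arm of mitochondrial core subunits pumps protons, with accessory subunits around both. The 7 matrix arm subunits had log2 changes of -0.09 to just below 0 and a median of -0.03. The one nearest 0, Ndufs8, averaged 52.0 FPKM with PGE2 and 51.8 FPKM with Vehicle. The membrane arm subunits, mt-Nd1 to mt-Nd6 with mt-Nd4l, were all lower in mean, with a median of -0.2. Of 29 accessory subunits, 23 were higher in mean and the median was 0.05. These directions depended on the library pair. Between libraries numbered 1, PGE2 was higher in 4 of 29 accessory and 6 of 7 membrane arm subunits. Between those numbered 2 it was higher in 25 and 0, and between those numbered 3 in 21 and 0. None of the 43 passed the test.

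Ndufv3 (chr17:31520115-31531326, plus strand, mm10), an accessory subunit at the NADH-binding end of the matrix arm, had 110.4, 108.5 and 111.9 FPKM in PGE2 libraries and 94.3, 93.7 and 102 FPKM in Vehicle libraries. All 3 PGE2 libraries were above all 3 Vehicle libraries. Its log2 change was 0.19 (SE 0.08, limma adjusted p = 0.37). Ndufs5, an accessory subunit shown above for its NRF1 match, had 56.7, 62.3 and 81.1 FPKM in PGE2 libraries and 55.2, 54.8 and 62.9 FPKM in Vehicle libraries, and the groups overlapped. Its log2 change was also 0.19 (SE 0.14, limma adjusted p = 0.64).

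Ndufa12 had the widest spread of all members. It had 8.19, 21.3 and 18.3 FPKM in PGE2 libraries and 4.11, 11.4 and 39.9 FPKM in Vehicle libraries. The log2 change was 0.21 in FPKM and -0.20 in read coverage, with an SE of 0.71 in FPKM. Its annotated entry held a median of 47.3% of the FPKM of its assembled locus, with 12.4% to 87.4% in single libraries. Ndufa13 and Atp5f1 were the other members under 50%, at 40.3% and 27.6%, while 90 of 98 members held at least 80%.

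The complex I assembly factors had a median log2 change of -0.18, the lowest of the groups by complex, with 5 of 7 lower in mean and none past the test. Ndufaf4 (chr4:24898083-24905001, plus strand), which acts in an early step of complex I assembly, had 3.71, 3.85 and 4.56 FPKM in PGE2 libraries and 4.78, 4.92 and 6.04 FPKM in Vehicle libraries. Every PGE2 library was below every Vehicle library, with a log2 change of -0.31 (SE 0.12, limma adjusted p = 0.35). Ndufaf5, which modifies a core subunit during assembly, had 6.51, 6.5 and 6.3 FPKM with PGE2 and 7.02, 8.05 and 7.18 FPKM with Vehicle. These groups also did not overlap, and the log2 change was -0.18 (SE 0.09, limma adjusted p = 0.48).

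Ndufaf6 had a log2 change of -0.28 (SE 0.13) and Ndufaf2 one of -0.18 (SE 0.16), with overlapping groups. Ndufaf3 pointed the other way at 0.22 (SE 0.13), and Ndufaf1 and Ndufaf7 lay at 0.06 and -0.02. Over the factors with a mean of at least 5 FPKM the median was -0.02, a limit that leaves out Ndufaf4 and Ndufaf6.

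Complex II, which also serves the citric acid cycle, differed least. Sdha, the flavoprotein that oxidizes succinate, had 65.2, 65.6 and 66.3 FPKM in PGE2 libraries and 70.8, 62.6 and 65.9 FPKM in Vehicle libraries. Sdhb, the iron-sulfur subunit, had 89.3, 104 and 105 FPKM with PGE2 and 102, 91.5 and 96.3 FPKM with Vehicle. The groups overlapped for both genes. Over Sdha, Sdhb, Sdhc and Sdhd, log2 changes ran from -0.03 to 0.04, and every interval lay within 0.5 log2 units of 0.

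In complex III the median log2 change was 0.02 and the 8 changes ran from -0.03 to 0.21. Uqcrh, the hinge subunit that binds near cytochrome c1, was the most abundant, with 219, 252 and 316 FPKM in PGE2 libraries and 213, 202 and 264 FPKM in Vehicle libraries. The groups overlapped and the log2 change was 0.21 (SE 0.16, limma adjusted p = 0.67). Uqcrfs1, the Rieske iron-sulfur subunit with a CRE match, had a log2 change of 0.08 (SE 0.08). The core subunits Uqcrc1 and Uqcrc2 differed by at most 0.03 in size. Beside the set, Cyc1 had 65.0, 75.5 and 68.9 FPKM with PGE2 and 80.3, 75.4 and 72.4 FPKM with Vehicle, and mt-Cytb 1439, 1347 and 1545 FPKM with PGE2 and 1408, 1717 and 1663 FPKM with Vehicle. The groups overlapped for both, with log2 changes of -0.12 (SE 0.09) and -0.14 (SE 0.13).

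Complex IV had the highest median log2 change, 0.07, with 15 of 17 genes higher in mean with PGE2. None passed. Without PGE2 replicate 3, but with Vehicle replicate 3 kept, the median was -0.05. Cox7a2, the widely expressed isoform of its subunit, had 95.2, 103 and 144 FPKM in PGE2 libraries and 84.9, 83.9 and 107 FPKM in Vehicle libraries. Cox5b, a zinc-binding subunit, had 130, 133 and 171 FPKM in PGE2 libraries and 138, 113 and 113 FPKM in Vehicle libraries. In both genes PGE2 replicate 3 was the highest library and the groups overlapped, with log2 changes of 0.29 (SE 0.17) and 0.24 (SE 0.14). Without PGE2 replicate 3, but with Vehicle replicate 3 kept, both changes were 0.12. Over all libraries that of Cox5b was 0.1 in read coverage. Between libraries numbered 1, 2 and 3, the differences were 0.16, 0.3 and 0.43 for Cox7a2. For Cox5b they were -0.09, 0.23 and 0.59. In Vehicle replicate 3 the annotated Cox5b entry held 44.2% of its assembled locus, and 100% in the other 5 libraries. The locus had 257 FPKM in Vehicle replicate 3, above every PGE2 library, so the direction for Cox5b depends on which entry is read.

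Cox6b2 (chr7:4751792-4753094, minus strand), known in mammals as the testis isoform of a subunit facing cytochrome c, had the largest negative change of all members. It had 13.3, 14.1 and 17.7 FPKM in PGE2 libraries and 22.1, 21.6 and 17.4 FPKM in Vehicle libraries. PGE2 replicate 3 stood just above Vehicle replicate 3, so the groups overlapped. The log2 change was -0.41 (SE 0.14, limma adjusted p = 0.25). Its widely expressed paralogue Cox6b1 averaged 185 ± 46.4 FPKM with PGE2 and 167 ± 29.4 FPKM with Vehicle, with a log2 change of 0.13 (SE 0.20).

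The complex IV paralogue sets showed which tissue isoforms the cells used. Cox4i1, the common form of the largest nuclear subunit, averaged 332 ± 40.7 FPKM with PGE2 and 316 ± 29.8 FPKM with Vehicle, while Cox4i2, the lung and low-oxygen form, averaged 0.19 FPKM with PGE2 and 0.15 FPKM with Vehicle. Cox6a1, the liver form, averaged 237 ± 22.6 FPKM with PGE2 and 217 ± 18.2 FPKM with Vehicle, while the heart form Cox6a2 averaged 0.12 FPKM with PGE2 and 0.17 FPKM with Vehicle. Cox8a averaged 273 ± 44.4 FPKM with PGE2 and 244 ± 19.6 FPKM with Vehicle, while the muscle form Cox8b averaged 0.049 FPKM with PGE2 and 0.033 FPKM with Vehicle. The widely expressed member of each of these sets dominated in every library of both groups.

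Cox7a2l, known for joining complexes III and IV into supercomplexes and shortened in the C57BL/6 strain, averaged 173 ± 23.1 FPKM with PGE2 and 165 ± 16.8 FPKM with Vehicle, above Cox7a2 at 114 ± 26.4 FPKM with PGE2 and 92.0 ± 13.2 FPKM with Vehicle (SD, n = 3 each). Cox7a1 had 1.15, 3.42 and 2.45 FPKM in PGE2 libraries and 1.79, 0.86 and 2.28 FPKM in Vehicle libraries, which overlap. Ndufa4, once assigned to complex I and now to complex IV, averaged 134 ± 39.8 FPKM with PGE2 and 129 ± 29.4 FPKM with Vehicle. Its paralogue Ndufa4l2, a gene known to respond to low oxygen, reached at most 0.055 FPKM in any library.

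**Figure D2:**
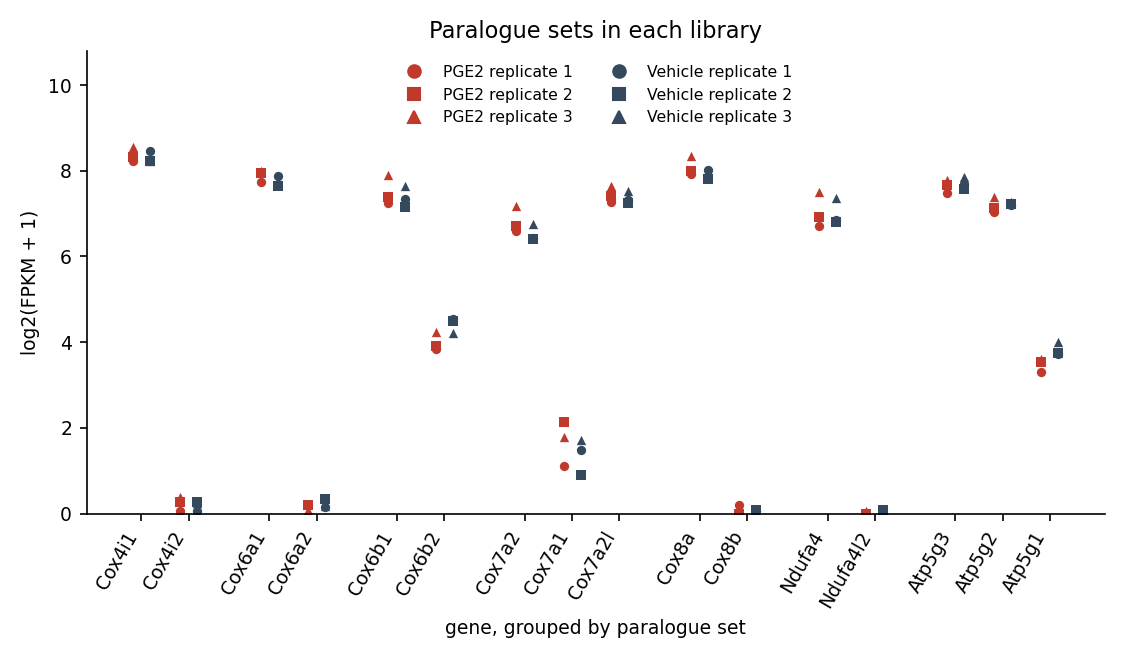
The y axis gives log2(FPKM + 1) in each library for the paralogue sets on the x axis, with PGE2 libraries to the left of Vehicle libraries for each gene and symbols for the replicate number. Cox4i2, Cox6a2, Cox8b and Ndufa4l2 lie near 0 in every library, and Cox6b2, Cox7a1 and Atp5g1 lie between their set's abundant members and 0.

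Complex V consists of a catalytic F1 part, here counted with its central stalk, and a membrane part with a ring of c subunits. Of the 5 F1 subunits, Atp5a1, Atp5b and Atp5c1 differed by at most 0.05 in size on the log2 scale. Atp5e had a log2 change of 0.09 and Atp5d one of 0.32. Atp5b, the catalytic beta subunit, was the most abundant nuclear gene of the set, with 433, 466 and 458 FPKM in PGE2 libraries and 470, 462 and 475 FPKM in Vehicle libraries. Atp5d (chr10:80138632-80145818, plus strand), the delta subunit of the central stalk, had 296, 318 and 311 FPKM in PGE2 libraries and 273, 243 and 226 FPKM in Vehicle libraries. All PGE2 libraries were above all Vehicle libraries. Its log2 change was the largest positive one of the 98 genes, 0.32 (SE 0.10, 95% interval 0.09 to 0.56), and had the lowest adjusted p among them, 0.23 by limma. Over the alternatives run, that adjusted p ranged from 0.12 to 0.56.

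The c ring is encoded by 3 genes that give the same mature protein. Atp5g3 averaged 200 ± 21.6 FPKM with PGE2 and 208 ± 21.3 FPKM with Vehicle, and Atp5g2 145 ± 18.1 FPKM with PGE2 and 150 ± 3.67 FPKM with Vehicle. Atp5g1 (chr11:96068852-96075670, minus strand) was far less abundant, with 8.82, 10.5 and 11.2 FPKM in PGE2 libraries and 12.1, 12.3 and 15.2 FPKM in Vehicle libraries. All PGE2 libraries were below all Vehicle libraries, with a log2 change of -0.34 (SE 0.13, limma adjusted p = 0.30). In read coverage the change was -0.22. For Atp5g2 and Atp5g3 the groups overlapped and the change was -0.06 each. Of the 9 subunits outside F1 and the c ring, nuclear and mitochondrial, 5 were higher and 4 lower in mean. None of these 9 changes was larger than 0.2 in size. Atp5k and Atp5l are uncertain in that they may share reads with copies listed as Atp5k-ps2 and Atp5l2-ps, which averaged 5.22 and 3.36 FPKM. The Atp5h entry, with a log2 change of -0.02, held 98.9% of its assembled locus in Vehicle replicate 3. In the other libraries it held 65.4% to 74.5%. The Atp5h locus had 236, 263 and 297 FPKM in PGE2 libraries and 243, 238 and 216 FPKM in Vehicle libraries, which overlap.

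Nuclear complex IV genes summed to 1926, 2120 and 2686 FPKM in PGE2 libraries and 2082, 1896 and 2271 FPKM in Vehicle libraries. Nuclear complex V genes summed to 2378, 2624 and 2875 FPKM in PGE2 libraries and 2515, 2453 and 2720 FPKM in Vehicle libraries. In both sums replicate 3 was the highest library of its group, and the groups overlapped.

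**Figure D3:**
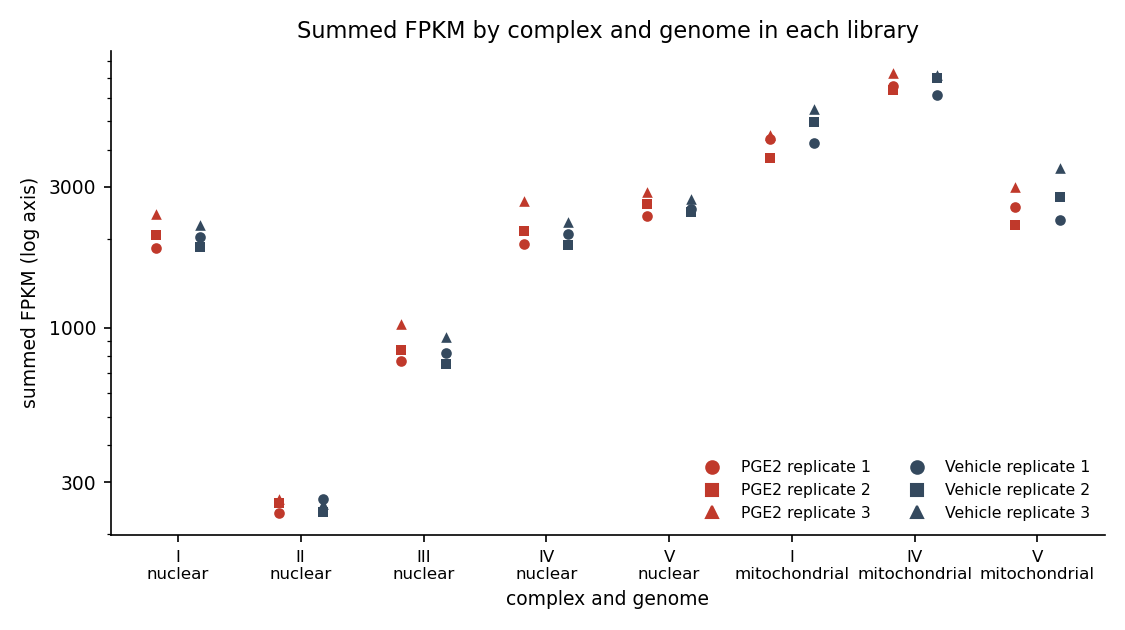
The y axis gives summed FPKM on a log scale for each complex and genome on the x axis, with PGE2 libraries left of Vehicle libraries and symbols for the replicate number. Groups overlap in every column. For mitochondrial genes of complex I, PGE2 replicate 2 is the lowest library at 3759 FPKM and Vehicle replicate 3 the highest at 5491 FPKM.

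The 12 mitochondrial genes are transcribed as long precursors from both strands of one circular genome and cut into shorter messages. Their levels differed widely. The complex IV core subunit mt-Co1 averaged 4234 ± 136 FPKM with PGE2 and 4334 ± 406 FPKM with Vehicle, and mt-Nd3, the lowest, 143 ± 53.4 FPKM with PGE2 and 155 ± 61.3 FPKM with Vehicle. The remaining 10 lay between these in both groups. mt-Co2 had 1229, 1279 and 1580 FPKM in PGE2 libraries and 1206, 1295 and 1397 FPKM in Vehicle libraries, and was, with mt-Co3, one of the 2 mitochondrial genes higher in mean with PGE2. For none of the 12 did the groups separate, and none had an unadjusted p under 0.05.

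The other 10 mitochondrial genes were lower in mean with PGE2. mt-Nd5 had 651, 458 and 505 FPKM in PGE2 libraries and 602, 690 and 691 FPKM in Vehicle libraries. mt-Nd2 had 657, 575 and 702 FPKM in PGE2 libraries and 655, 791 and 882 FPKM in Vehicle libraries. In both genes PGE2 replicate 1 overlapped the Vehicle libraries, and the log2 changes were -0.31 (SE 0.15, limma adjusted p = 0.45) and -0.26 (SE 0.14, limma adjusted p = 0.51). mt-Nd4l had the largest negative change at -0.37 (SE 0.24), while mt-Nd4, which it overlaps, had one of -0.14 (SE 0.11). For mt-Nd6, encoded on the opposite strand, the change was -0.06 (SE 0.10). The mitochondrial median was -0.12, and it was -0.26 without Vehicle replicate 1. mt-Atp8 overlaps mt-Atp6 and mt-Nd4l overlaps mt-Nd4 on the same strand, so reads in these overlaps cannot be assigned from the values at hand. The end of mt-Nd6 overlaps that of mt-Nd5 on the other strand. The libraries were stranded, but how strand was used for the gene values was not stated.

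**Figure D4:**
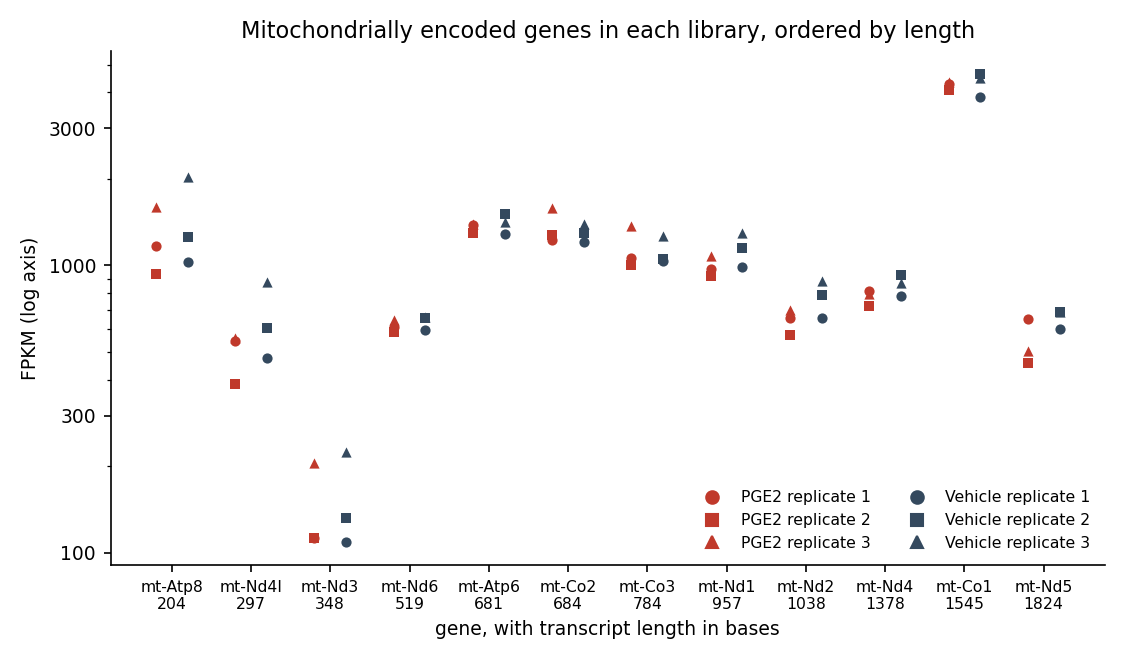
The y axis gives FPKM on a log scale for the 12 mitochondrial genes, ordered on the x axis by transcript length in bases, with PGE2 libraries left of Vehicle libraries. The replicate 3 triangles stand above the other symbols of their group for the short genes mt-Atp8, mt-Nd4l and mt-Nd3. Over the mean log2(FPKM + 1) of replicates 1 and 2, the excess was 0.61, 0.28 and 0.86 with PGE2. With Vehicle it was 0.84, 0.70 and 0.90. For mt-Nd4l with PGE2, replicate 3 had 557 FPKM and replicate 1 had 544 FPKM.

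Set against each other, the genomes differed in direction by replicate pair. Over all tested genes, deviations from group means correlated at 0.227, 0.312 and 0.529 between same-numbered libraries. PGE2 replicate 1 correlated at 0.271 with Vehicle replicate 2, and PGE2 replicate 2 at 0.149 with Vehicle replicate 1. Deviations of 3 libraries sum to 0, so one shared by both replicate 3 libraries alone also raises the values among replicates 1 and 2. The correlations therefore cannot show how replicates 1 and 2 are matched. Over the 98 genes alone the same-numbered correlations were 0.36, 0.031 and 0.554, against 0.567 for PGE2 replicate 1 with Vehicle replicate 2. In pair 1, PGE2 was higher in 11 of 12 mitochondrial genes but in 13 of 86 nuclear genes. In pair 2 it was higher in 0 of 12 mitochondrial and 72 of 86 nuclear genes, and in pair 3 in 2 of 12 and 62 of 86. Over all tested genes these shares were 45.1%, 50.4% and 43.1%. The ratio of summed mitochondrial to nuclear FPKM was 1.86, 1.55 and 1.58 in PGE2 libraries and 1.63, 2.02 and 1.90 in Vehicle libraries. PGE2 replicate 1 was above Vehicle replicate 1, while PGE2 replicates 2 and 3 were below their Vehicle partners. Means were 1.66 ± 0.17 with PGE2 and 1.85 ± 0.20 with Vehicle (SD, n = 3 each), and the groups overlapped. With mitochondrial genes under 500 bases left out, means were 1.44 ± 0.15 with PGE2 and 1.57 ± 0.16 with Vehicle. The libraries were made from poly-A RNA, so these ratios also depend on how messages of each genome were captured, which was not tested.

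With replicate number as a block in limma, again none of the 98 genes passed at an adjusted p under 0.05, against 3.26% of all tested genes. At an unadjusted p under 0.05 the block gave 7 of the 98 genes, against 19.7% of all tested genes. The lowest adjusted p of a member in this fit was 0.093, for Atp5g1. Only 19 of the 98 genes had the same sign of change in all 3 pairs, against 42.3% of all tested genes. Of the 7 assembly factors, 5 had the same sign in all pairs. Ndufaf2, Ndufaf4, Ndufaf5 and Ndufaf6 were lower with PGE2 in each pair, and Ndufaf3 was higher.

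The spread between replicates followed replicate number and, in part, transcript length. Nuclear members had a median annotated transcript length of 710.5 bases, against 2059 bases for tested protein coding genes. Replicate 3 was higher than the mean of replicates 1 and 2 in 80 of 86 nuclear genes with PGE2 and 66 of 86 with Vehicle, and in 65 of 86 in both groups. On the log2(FPKM + 1) scale the median excess was 0.41 with PGE2 and 0.31 with Vehicle for nuclear members under 600 bases, 0.27 with PGE2 and 0.11 with Vehicle for those of at least 600 but under 1000 bases, and 0.15 with PGE2 and 0.09 with Vehicle for those of 1000 bases and over. Tested protein coding genes, members included, had lower median excesses than nuclear members in each length bin. Under 600 bases these were 0.11 with PGE2 and 0.04 with Vehicle. From 600 to under 1000 bases they were 0.05 with PGE2 and 0.01 with Vehicle, and at 1000 bases and over -0.07 with PGE2 and 0 with Vehicle.

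Across the 86 nuclear genes the Spearman correlation between length and the excess of replicate 3 was -0.52 with PGE2 and -0.34 with Vehicle. Across the 12 mitochondrial genes it was -0.73 with PGE2 and -0.49 with Vehicle. The Pearson correlation with log2 length was -0.5 with PGE2 and -0.17 with Vehicle for nuclear genes. For mitochondrial genes it was -0.75 with PGE2 and -0.8 with Vehicle. These correlations are across genes that share their libraries and are descriptions only. Replicate 3 was also the shallowest library of each group, and its part in the values above was not tested. With every other library kept, the nuclear median log2 change was -0.06 without PGE2 replicate 3, in place of 0.04. Without PGE2 replicate 1 it was 0.13.

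**Figure D5:**
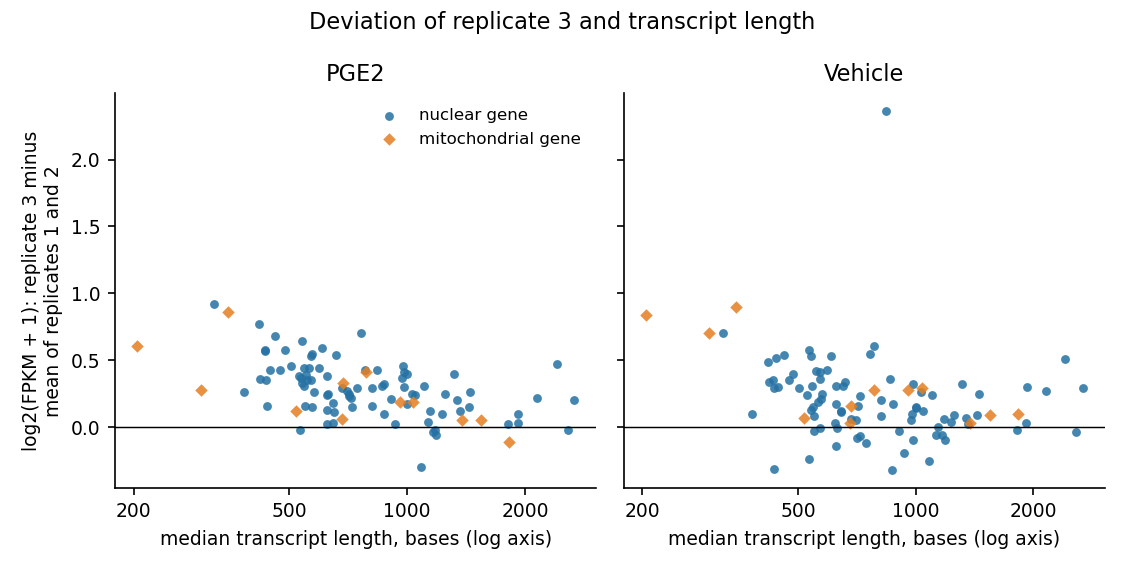
Each point is a gene, with its median annotated transcript length in bases on a log x axis and log2(FPKM + 1) in replicate 3 minus the mean of replicates 1 and 2 on the y axis, PGE2 in the left panel and Vehicle in the right panel. By median, genes under 600 bases lie higher than those of 1000 bases and over in both panels, for nuclear and for mitochondrial genes. For nuclear genes with Vehicle, the medians of the 2 longer bins, 0.11 and 0.09, differ little. The highest nuclear point of the Vehicle panel is Ndufa12.

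Grouped by promoter letters, genes with an NRF1 match had a median log2 change of 0.02 (n = 22) and those without one 0.04 (n = 52). The 4 genes with CRE letters had log2 changes of -0.09 for Ndufa10, 0.08 for Ndufa11, -0.14 for Ndufb2 and 0.08 for Uqcrfs1, with overlapping groups and none past the test. The YY1 medians were 0.04 for both the 8 genes with and the 66 without the letters.

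Among genes that serve the chain from outside the name rule, none of 42 tested assembly factors beyond the Nduf names, 25 carriers and other genes at the chain, 27 genes for the expression of the mitochondrial genome, or 27 genes of the citric acid cycle and pyruvate dehydrogenase passed the limma test in the main setting. Their median log2 changes were -0.09, -0.05, -0.11 and -0.02. At an unadjusted p under 0.05 the counts were 0 higher and 5 lower, 0 and 0, 0 and 3, and 2 higher and 0 lower. Over all tested genes 661 were higher and 919 lower at that p, 13% in all. The genes with the smallest p in these lists, named after their values were seen, were Pprc1, a coactivator related to PGC-1, and Sco2, a copper chaperone of complex IV assembly.

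Pprc1 had 7.37, 7.06 and 5.66 FPKM in PGE2 libraries and 11.3, 8.53 and 10.1 FPKM in Vehicle libraries. Sco2 had 5.23, 6.25 and 4.47 FPKM in PGE2 libraries and 8.49, 7.16 and 7.70 FPKM in Vehicle libraries. In both genes every PGE2 library was below every Vehicle library, with log2 changes of -0.51 (SE 0.13) and -0.48 (SE 0.13) and a limma adjusted p of 0.15 each. Over the alternatives the adjusted p ranged from 0.037 to 0.35 for Pprc1 and from 0.071 to 0.35 for Sco2. Pprc1 and Elac2, which cuts mitochondrial tRNA precursors, passed in read coverage with the replicate block, at 0.037 and 0.035 by limma, and in no other alternative. Tfam and Nrf1, known activators of mitochondrial and nuclear chain genes, had log2 changes of -0.10 (SE 0.12) and -0.08 (SE 0.11).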

How the data were processed

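Groups and replicate numbers of the 6 libraries were taken from the titles. Per the labels' protocols, poly-A RNA of sorted cells was made into stranded libraries. The submitters' processing notes name Trim Galore, HISAT2 and mm10; versions, annotation and the program behind the gene tables were not stated. Per the file headers, each table gives FPKM, TPM and coverage per gene. The deposited FPKM corrects for transcript length and library size, and the deposited coverage is mean read depth over a gene. The deposited TPM was handled as a score and not tested, because loci appear under both assembled and annotated entries. Only annotated entries were used. Depth is the median ratio of coverage to FPKM over genes with 1 transcript, of which 97.3% to 97.7% lay within 1% of it. Counts are not at hand, so there was no count model and no counting interval. Biotype and transcript length came from GENCODE M21 (GRCm38, the mm10 assembly).

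Genes averaging 1 FPKM or more were tested with limma 3.58.1 (R 4.3.3) on log2(FPKM + 1), a scale that understates changes of low genes, with a variance trend, no covariate, two-sided, and Benjamini-Hochberg adjustment over 12113 genes at 0.05. The script was tested on simulated data. PGE2 and Vehicle libraries of the same number in the titles were taken as pairs. Their deviations from group means correlated across tested genes at 0.227, 0.312 and 0.529. PGE2 replicate 1 correlated at 0.271 with Vehicle replicate 2, so for replicates 1 and 2 the pairing is an assumption. Alternatives were other filters, pseudocounts and scalings, coverage, a replicate block, and leaving out each library.

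Members and lists were chosen with earlier results of these data known. The rule for named members takes those at an unadjusted p under 0.05, the 6 largest changes each way, the highest of each complex, all mitochondrial members and the paralogue sets. Others named for a role, a promoter match, a locus share or separate groups (Ndufs5, Ndufa12, Ndufaf5 and the like) were chosen after their values were seen. Python 3.11.15 with matplotlib 3.10.9 made the figures.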

Additional observations from a re-analysis of the deposited data

How the results depend on the processing

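None of the 98 genes passed the limma test (0 higher, 0 lower) in the main setting or in any of 15 alternatives, and the lowest adjusted p of any member was 0.069, for Ndufaf4, in read coverage over depth with the replicate block, an alternative chosen after seeing the data. At an unadjusted p under 0.05 the alternatives gave 0 to 10 members, 0 of them without PGE2 replicate 2. Of 492 values of the 33 members named by rule under the alternatives, 24 had the other sign and 0 passed. Calls over all tested genes moved more. In the main setting 69 were higher and 29 lower with PGE2. Admitting every gene above 0 FPKM gave 33 and 12, with more genes to adjust over, read coverage gave 112 and 47, the replicate block 215 and 180, and coverage with the block 325 and 310, while scaling to nuclear genes left 17 lower. Leaving out each library in turn gave 16 to 53 higher and 4 to 16 lower, with fewer samples. All 98 genes called in the main setting were also called with the replicate block, which changed no call of a member. Medians moved without PGE2 replicate 3 for nuclear members, to -0.06 (range -0.06 to 0.13 over the libraries left out), and without Vehicle replicate 1 for mitochondrial members, to -0.26 (range -0.26 to -0.02). The median of the assembly factors was -0.02 at a minimum mean of 5 FPKM, with fewer genes. The cause was not tested where no construction is named. Depth is known only as gigabases of coverage, so counting error could not be given.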

Other observations

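The mitochondrial ribosomal RNAs, which lie outside the name rule and were looked at after their values were seen, followed replicate number more than treatment. mt-Rnr1 had 146, 162 and 295 FPKM in PGE2 libraries and 124, 148 and 279 FPKM in Vehicle libraries. mt-Rnr2 had 162, 176 and 276 FPKM in PGE2 libraries and 139, 169 and 311 FPKM in Vehicle libraries. Replicate 3 was the highest library of each group for both, and the groups overlapped. The log2 changes were 0.14 (SE 0.36, limma adjusted p = 0.91) and 0.04 (SE 0.32, limma adjusted p = 0.98).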
